A study of Homo sapiens with 8 samples.

Results

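Enzymes that cut the extracellular matrix and cell-surface proteins, together with their inhibitors, were followed in CCRF-CEM cells embedded in collagen. The set was defined by name and holds 10 genes: the matrix metalloproteinases MMP2, MMP9 and MMP14, the disintegrin metalloproteinases ADAM8, ADAM10 and ADAM17, the inhibitors TIMP1, TIMP2 and TIMP3, and BSG, which encodes the matrix metalloproteinase inducer basigin. Each of 9 had 1 probe set among the 17687 genes named on the arrays. TIMP2 had 0 and was not analysed here. CCRF-CEM is a long-cultured human line of T-cell acute lymphoblastic leukaemia, shortened here to T-ALL. The OICR group was given 1 µM OICR-9429, a small molecule that binds WDR5, a shared subunit of the MLL-family histone H3 lysine 4 methyltransferases, for 1 h, and the untreated group was not given the compound; no solvent for the untreated cells is mentioned. Cells of both groups were grown in RPMI with fetal bovine serum and then held for 1 h in bovine type I collagen at 1.7 mg/mL. Each group has 4 arrays, called biological replicates and numbered 1 to 4, and a single cell line gave them all. A culture outside collagen is not among these samples, so the effect of the gel itself was not measured.

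Matrix metalloproteinases are zinc enzymes made as inactive proforms. MMP2 and MMP9, the gelatinases, cut denatured collagen and basement membrane collagen, and the membrane-anchored MMP14 cuts fibrillar type I collagen at the cell surface and activates proMMP2. ADAM10 and ADAM17 are sheddases that release the outer part of membrane proteins, among them NOTCH receptors (ADAM10) and tumour necrosis factor (ADAM17), and ADAM8 is found mainly on leukocytes. TIMPs bind the active sites of many of these enzymes. TIMP3 is held in the matrix and inhibits ADAM17, TIMP1 is secreted and inhibits MMP9, and TIMP2 takes part in proMMP2 activation by MMP14. Basigin is a surface glycoprotein that accompanies lactate transporters to the membrane and induces metalloproteinases in neighbouring cells.

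Genes that mark the labelled cell type were read first. All 9 T-ALL identity genes looked at (CD3D, CD3E, CD3G, CD247, CD5, CD7, CD2, LCK and TAL1) had a mean log2 expression value over the 8 arrays above 6.445, the median of all 21448 probe sets. CD3E stood highest, at 11.84 ± 0.17 in OICR cells and 11.82 ± 0.13 in untreated cells (SD, n = 4 each). CD2 stood lowest, at 6.43 ± 0.47 in OICR cells, below that median, and 6.56 ± 0.53 in untreated cells. Array medians ran from 6.38 to 6.46. The arrays fell together by replicate number: deviations from the group mean correlated across probe sets between the OICR and untreated arrays of the same number at 0.566 to 0.865, where probe sets are not independent. Both arrays of number 4 stood apart from the other 6. Counts of genes that differed between numbers, and the differences called at numbers 1 and 2, are also given below without them.

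The genes ranged from dim to bright on the array. Brightness also depends on a probe set's own probes, so the values are not compared as amounts between genes; they are set here against 349 olfactory receptor genes, which serve as a reference for dim signal and of which 95% lay below 4.83 on the log2 scale. BSG (mean 11.14 over the 8 arrays), ADAM10 (10.51), TIMP1 (10.43), ADAM17 (8.57) and ADAM8 (7.10) lay above every olfactory receptor. TIMP3 (6.03) was reached or passed by 3 olfactory receptors, MMP14 (5.34) by 10, MMP9 (5.31) by 12 and MMP2 (4.74) by 20. The 3 metalloproteinases of the MMP family thus sat in the upper tail of the dim reference, and small differences in them are measured with little signal.

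**Figure D1:**
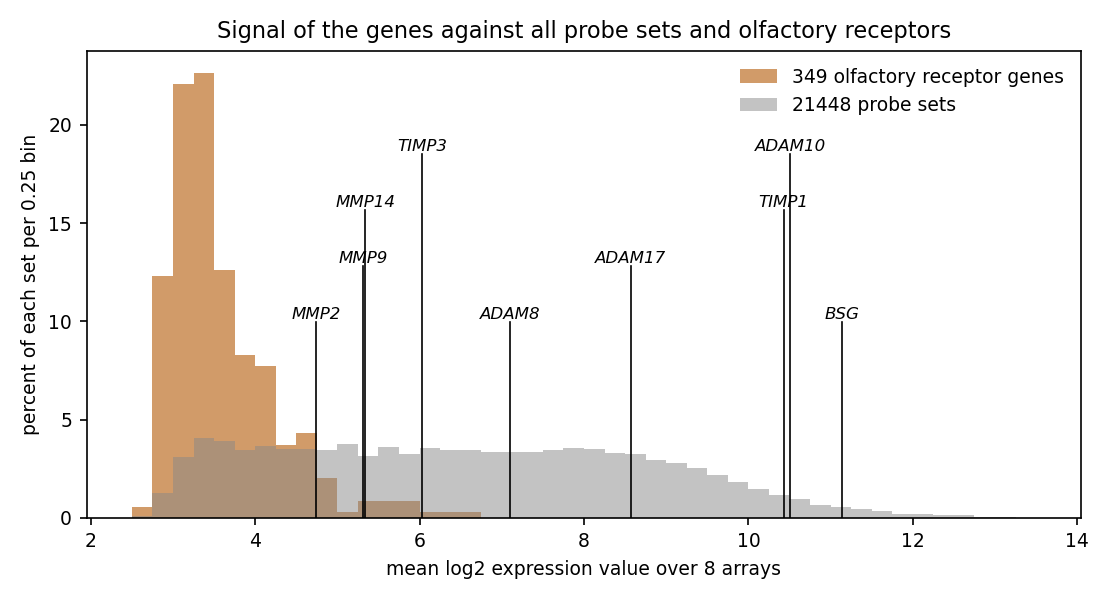
Mean log2 expression value over 8 arrays (x axis) against the percent of each set in bins of 0.25 (y axis), for 349 olfactory receptor genes and all 21448 probe sets, with a vertical line for each of the 9 genes. MMP2, MMP9 and MMP14 stand in the tail of the olfactory receptors, and ADAM8, ADAM17, TIMP1, ADAM10 and BSG to the right of all of them.

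The sequences before the transcription starts are shown for the 5 genes on which the results turn: ADAM10, ADAM17, TIMP1 and BSG, which moved in opposite directions between replicate numbers, and MMP14, the gene nearest the threshold for OICR-9429. They are the 250 bases upstream of a RefSeq start on GRCh38.p14, written 5′ to 3′ on the gene's strand. Of the 9 genes, 7 had an entry, and BSG had 2 starts. Capitals mark matches on either strand to GGGCGG (GC box), CACGTG (E-box), TGANTCA (AP-1), TGAGTAA (the AP-1 variant known from TIMP1), GCGNGGGCG (EGR), CCAAT, CCGGAAGT (ETS) and TATAAA; EGR matches may overlap GC boxes.
ADAM10 (chr15:58749708-58749957, minus strand): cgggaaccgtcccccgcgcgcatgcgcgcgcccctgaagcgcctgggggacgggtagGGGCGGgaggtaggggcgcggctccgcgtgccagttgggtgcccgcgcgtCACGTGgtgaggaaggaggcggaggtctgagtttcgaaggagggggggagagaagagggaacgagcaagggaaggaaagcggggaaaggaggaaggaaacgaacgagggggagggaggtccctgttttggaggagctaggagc
ADAM17 (chr2:9555831-9556080, minus strand): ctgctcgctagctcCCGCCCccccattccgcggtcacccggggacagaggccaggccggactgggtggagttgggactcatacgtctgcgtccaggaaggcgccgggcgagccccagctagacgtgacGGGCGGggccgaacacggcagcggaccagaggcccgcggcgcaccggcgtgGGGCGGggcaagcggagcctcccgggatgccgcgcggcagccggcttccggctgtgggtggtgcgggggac
TIMP1 (chrX:47582186-47582435, plus strand): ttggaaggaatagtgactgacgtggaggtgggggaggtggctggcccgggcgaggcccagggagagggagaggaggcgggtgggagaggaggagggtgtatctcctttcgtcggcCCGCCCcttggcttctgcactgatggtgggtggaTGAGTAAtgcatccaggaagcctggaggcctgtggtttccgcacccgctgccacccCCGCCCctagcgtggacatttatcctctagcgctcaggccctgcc
BSG, second listed start (chr19:572346-572595, plus strand): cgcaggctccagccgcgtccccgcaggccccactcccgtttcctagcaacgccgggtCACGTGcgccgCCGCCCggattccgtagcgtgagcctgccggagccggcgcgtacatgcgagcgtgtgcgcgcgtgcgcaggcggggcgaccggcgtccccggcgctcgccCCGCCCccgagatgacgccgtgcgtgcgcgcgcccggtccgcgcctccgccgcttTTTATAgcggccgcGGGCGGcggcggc
MMP14 (chr14:22836335-22836584, plus strand): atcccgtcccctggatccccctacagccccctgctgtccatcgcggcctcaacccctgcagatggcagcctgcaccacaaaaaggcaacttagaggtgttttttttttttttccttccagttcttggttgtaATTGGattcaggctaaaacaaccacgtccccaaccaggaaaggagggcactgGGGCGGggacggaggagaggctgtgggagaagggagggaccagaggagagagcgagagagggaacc
ADAM17 and the second BSG start each held 3 GC boxes, TIMP1 held 2, and ADAM10 and MMP14 held 1 each. Of the genes not shown, TIMP3 held 5 and ADAM8 held 3. At least 1 GC box lay in 42.3% of all 27305 such windows. The bases G and C made up 56.8% (MMP14) to 78.4% (second BSG start) of the windows shown, against a median of 58.0% over all windows. ADAM10 and the second BSG start also held an E-box, a motif of 6.49% of windows, and TIMP1 the AP-1 variant, 101 to 95 bases before its start, a motif of 2.25%. The AP-1 variant was searched as a motif already known from TIMP1, so its match there was given in advance. MMP14 had a CCAAT match on the minus strand, found in 33.0% of windows, and the second BSG start a TATAAA match on the minus strand, found in 11.1%. The first BSG start held 0 of the motifs searched. The motifs are letters in these windows and no measure of binding.

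No gene of the set changed past the threshold with OICR-9429. Of the 9 genes, 0 passed an adjusted p of 0.05 in limma, where 0% of all 21448 probe sets passed, and 0 passed with the replicate number as a block (0% again). At an unadjusted p under 0.05 the set had 1 gene, MMP14, both without the block (0.49% of all probe sets) and with it (5.55%). The log2 difference, OICR minus untreated, was above 0 in 3 genes, below 0 in 5 and exactly 0 in ADAM8, with a median of -0.085 against 0.005 over all probe sets. The groups' values did not overlap in 0 of 9 genes (0.737% of all probe sets), and all 4 within-number differences had the same sign in 0 of 9 (12.6% of all probe sets, 5.94% higher and 6.62% lower). A change in RNA per cell and a change in the share of cells that hold it cannot be told apart in such bulk samples. Whether the biological replicates were grown as separate cultures is not stated, so the p-values cover only the scatter among these 8 arrays.

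MMP14 had the largest difference of the set. Its log2 values were 5.09, 4.93, 5.31 and 5.11 in OICR cells of numbers 1 to 4, against 5.73, 5.47, 5.17 and 5.90 in untreated cells. It was lower with OICR-9429 in numbers 1, 2 and 4 and higher in number 3, whose untreated array fell within the range of the OICR arrays. The mean difference was -0.46 ± 0.19 (SE) without the block and ± 0.16 with it, which is 0.728-fold. The 95% interval ran from -0.89 to -0.03 without the block and from -0.82 to -0.10 with it. The adjusted p was 1 without the block and 0.841 with it (limma), and 0.68 to 1 over all alternatives. By unadjusted p MMP14 ranked 75th of 21448 probe sets without the block and 393rd with it. Replicate number held 15.5% of its variance over the 8 arrays and treatment 52.6%, against 75% to 95.2% for number in the other 8 genes. These shares were not tested against each other.

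The 2 gelatinases stayed within their spread. MMP2, the partner that MMP14 activates, measured 4.37, 4.65, 4.77 and 4.96 in OICR cells of numbers 1 to 4, against 4.50, 4.93, 4.70 and 5.06 in untreated cells. Its difference of -0.11 ± 0.10 (SE, with the block) had a 95% interval of -0.34 to 0.12. MMP9 measured 5.44, 5.27, 4.85 and 5.75 in OICR cells, against 5.05, 4.93, 5.26 and 5.93 in untreated cells. MMP9 was higher with OICR-9429 in numbers 1 and 2 and lower in 3 and 4, and its mean difference was 0.035 (95% interval -0.31 to 0.38 with the block). In both genes the number 4 arrays were the highest of their group.

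None of the 3 sheddases passed the test. ADAM10 measured 10.33, 11.01, 10.70 and 10.02 in OICR cells, against 10.44, 10.71, 10.80 and 10.04 in untreated cells, a difference of 0.02 (95% interval -0.23 to 0.27 with the block). ADAM17 measured 8.32, 9.13, 8.78 and 8.36 in OICR cells, against 8.42, 8.83, 8.68 and 8.03 in untreated cells. It was higher with OICR-9429 in 3 of 4 numbers, by 0.16 on average (95% interval -0.10 to 0.41 with the block; adjusted p 0.854, limma, and 0.68 to 1 over all alternatives). ADAM8 measured 7.07, 6.88, 7.04 and 7.41 in OICR cells, against 6.55, 7.06, 7.17 and 7.62 in untreated cells, and its mean difference was 0 (95% interval -0.32 to 0.32 with the block). The within-number difference of ADAM8 was 0.52 in number 1 and -0.21 to -0.13 in the others.

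The inhibitors and basigin did not pass the test either. TIMP1 measured 10.76, 9.50, 10.15 and 11.07 in OICR cells, against 10.48, 9.67, 10.59 and 11.24 in untreated cells, a difference of -0.125 (95% interval -0.42 to 0.17 with the block). TIMP3 measured 5.34, 6.07, 6.06 and 6.42 in OICR cells, against 5.67, 6.01, 6.12 and 6.57 in untreated cells, a difference of -0.12 (-0.36 to 0.12). BSG measured 11.29, 10.37, 11.14 and 11.61 in OICR cells, against 11.22, 10.71, 11.18 and 11.64 in untreated cells, a difference of -0.085 (-0.33 to 0.16). Each was lower with OICR-9429 in 3 of 4 numbers, and each group spanned far more than the difference between groups. With the block, the 95% intervals of all 9 genes lay between 0.568-fold and 1.33-fold, and changes within a gene's own interval are not excluded by these arrays. These intervals are not adjusted for the number of genes.

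**Figure D2:**
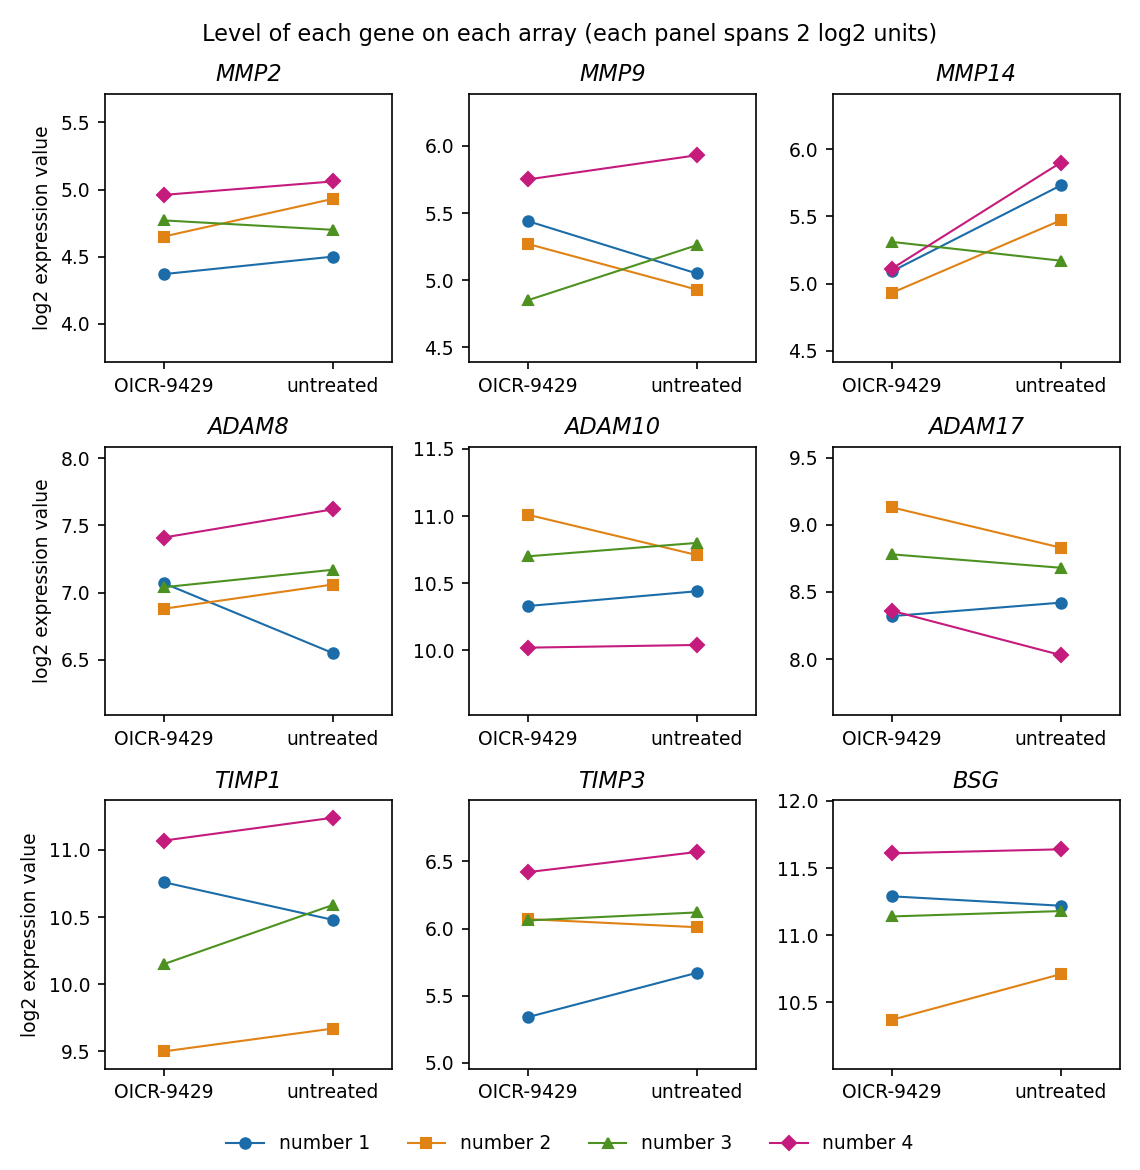
Log2 expression value (y axis, 2 log2 units in each panel) of the 9 genes on each array, with OICR-9429 arrays at left and untreated arrays at right and a line for each replicate number. Lines of number 4 lie highest for MMP2, MMP9, ADAM8, TIMP1, TIMP3 and BSG and low for ADAM10 and ADAM17, and 3 of 4 lines of MMP14 are lower at left.

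**Figure D3:**
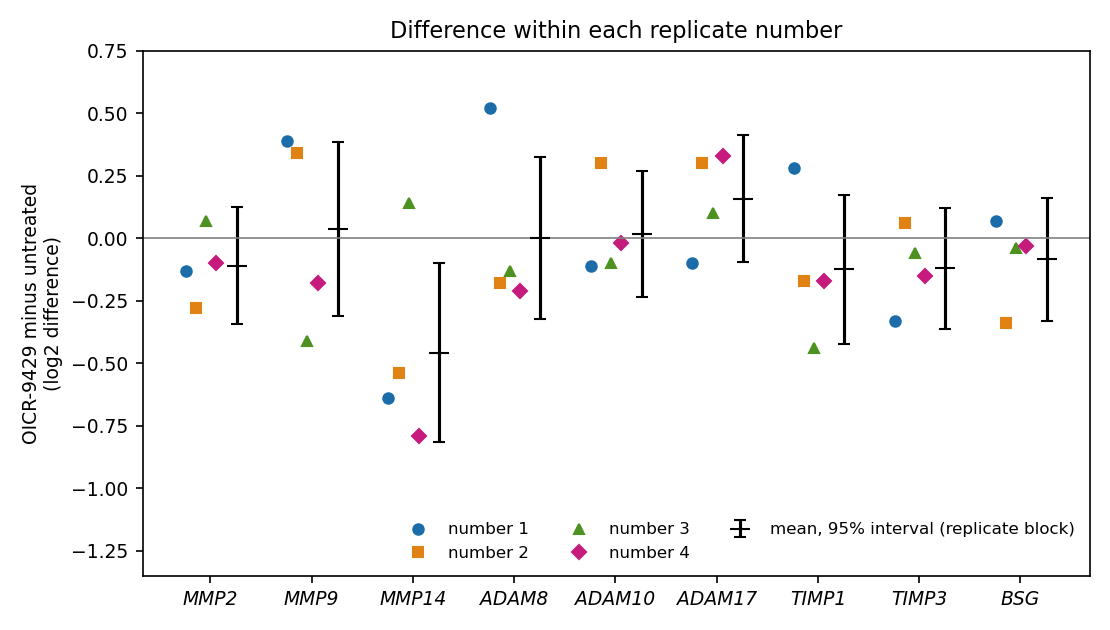
OICR-9429 minus untreated on the log2 scale (y axis) within each replicate number for the 9 genes (x axis); black bars give the mean and its 95% interval from the fit with the replicate block. The interval of MMP14, -0.82 to -0.10, is the only one of the 9 that leaves out 0, before any adjustment for the number of genes.

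Replicate number separated the samples far more than OICR-9429. With treatment in the model, 7 of 9 genes differed between numbers (limma's F test, adjusted p 0.00149 to 0.0494), where 50.3% of all probe sets did. ADAM8 (adjusted p 0.0678) and MMP14 (0.564) did not pass. Which genes passed this F test depended on the settings. ADAM8 passed after quantile normalization (adjusted p 0.0271), with trend and robust variance (0.0272), with a filter at the median level (0.0253) and without number 1 (0.0379). It did not after median centring (0.0672) or without number 2 (0.0641), 3 (0.0556) or 4 (0.538). MMP2 passed without number 2 (0.0357) or 3 (0.0432). It did not after median centring (0.0618), quantile normalization (0.141), with trend and robust variance (0.15) or without number 1 (0.317) or 4 (0.233). MMP9 did not pass after quantile normalization (0.0585) or without number 4 (0.768). ADAM17 (0.0639) and BSG (0.0551) did not without number 2, nor did TIMP3 (0.0667) without number 1. At number 4, set against the mean of the other numbers, 6 genes were higher and 2 lower, where 26.3% of all probe sets were higher and 25.5% lower (51.8% either way). At number 2, 2 were higher and 2 lower, where 15.4% of all probe sets were higher and 11.6% lower (27.1% either way). At number 1, 0 were higher and 2 lower (10.6% and 6.14% of all probe sets, 16.7% either way), and at number 3, 0 of 9 passed, where 1.18% of all probe sets were higher and 0.2% lower (1.38% either way). These tests have 2 arrays per number, so they rest on how closely the OICR and untreated arrays of a number agree and say nothing of the spread between separate cultures. Whether a number marks a culture day, an RNA preparation or an array batch is not stated, and these cannot be told apart.

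TIMP1 and BSG rose together at number 4 and fell together at number 2. TIMP1 was higher at number 4 than in the other numbers by 0.96 ± 0.15 (SE, adjusted p 0.00107, limma) and lower at number 2 by -1.13 ± 0.15 (adjusted p 0.00197). BSG was higher at number 4 by 0.64 ± 0.12 (adjusted p 0.0031) and lower at number 2 by -0.81 ± 0.12 (adjusted p 0.00315). The spread of TIMP1 over the 8 arrays was the widest of the 9 genes, at 3.34-fold between 9.50 and 11.24 on the log2 scale. Without number 4 the difference at number 2 was -0.91 for TIMP1 (adjusted p 0.0125) and -0.67 for BSG (adjusted p 0.0176), and these were the 2 genes of the set that still passed the F test of any difference between numbers, where 13.9% of all probe sets did.

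ADAM10 and ADAM17 ran the other way. ADAM10 was lower at number 4 by -0.64 ± 0.13 (SE, adjusted p 0.00362, limma) and higher at number 2 by 0.47 ± 0.13 (adjusted p 0.0267). ADAM17 was lower at number 4 by -0.50 ± 0.13 (adjusted p 0.0117) and higher at number 2 by 0.55 ± 0.13 (adjusted p 0.0155). Number 4 against number 2 shows the contrast in each arm. TIMP1 was higher at number 4 than at number 2 by 1.57 in both the OICR and the untreated arrays, and BSG by 1.24 in OICR and 0.93 in untreated arrays. ADAM10 was lower there by -0.99 in OICR and -0.67 in untreated arrays, and ADAM17 by -0.77 and -0.80. Arrays of the 2 arms share their number, so the arms are not separate evidence. The ADAM17 value at number 4 was -0.25 after quantile normalization (adjusted p 0.121), and without number 4 the values at number 2 were 0.29 for ADAM10 (adjusted p 0.201) and 0.43 for ADAM17 (adjusted p 0.0668).

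Of the remaining genes 4 were higher at number 4, while MMP14 was not called there (0.22, adjusted p 0.332, limma). MMP9 was higher there by 0.71 ± 0.17 (SE, adjusted p 0.0101, limma), TIMP3 by 0.62 ± 0.12 (adjusted p 0.00341), ADAM8 by 0.55 ± 0.16 (adjusted p 0.0212) and MMP2 by 0.36 ± 0.12 (adjusted p 0.0337). TIMP3 was lower at number 1 by -0.70 ± 0.12 (adjusted p 0.0094; -0.56 and 0.0372 without number 4), and MMP2 by -0.41 ± 0.12 (adjusted p 0.0493). Differences at number 4 moved with level across the array. Over all probe sets the number 4 difference had a median of 0.141 and 0.228 in the 2 dimmer of 4 equal classes of level and of -0.0183 and -0.248 in the 2 brighter ones, and the olfactory receptors had a median of 0.13, with 64 of 349 higher and 6 lower. MMP2, MMP9 and TIMP3, in the dimmer classes, followed the direction of that trend, as did the bright ADAM10 and ADAM17. TIMP1 and BSG, in the brightest class, were high at number 4 against it. ADAM8 was high in the class with the median of -0.0183, where 49.1% of probe sets had a difference above 0. The part of the trend in the single genes was not tested. The MMP2 calls did not hold under several alternatives: at number 4 the adjusted p was 0.0993 after quantile normalization and 0.0951 with trend and robust variance, and at number 1 it was 0.0701 after median centring and 0.154 without number 4.

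**Figure D4:**
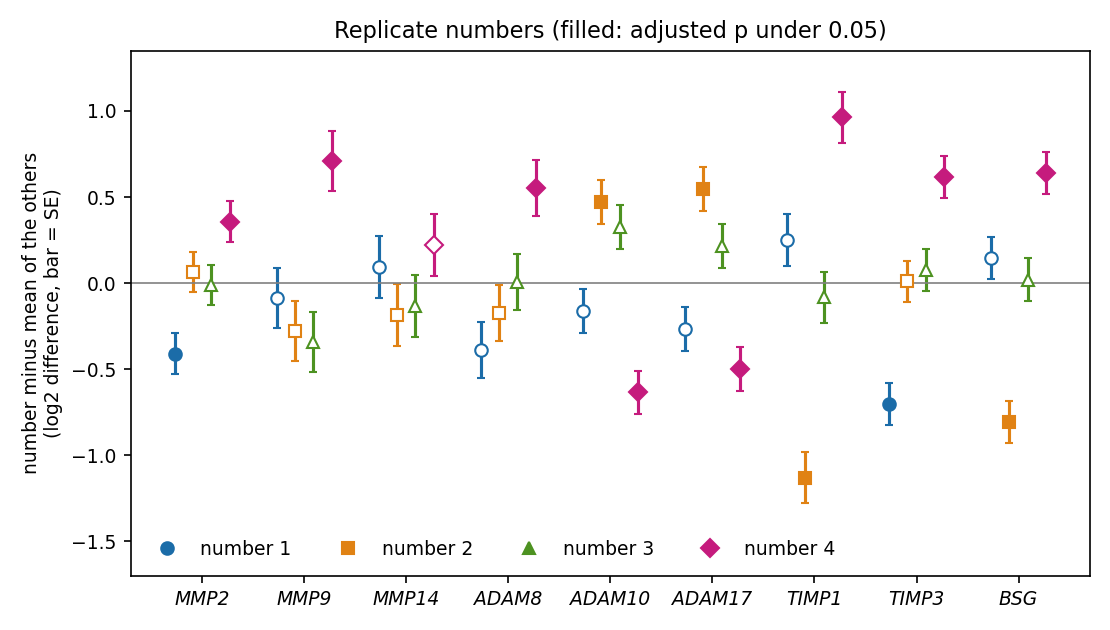
Each replicate number minus the mean of the other numbers on the log2 scale (y axis, bars are SE) for the 9 genes (x axis), from the limma fit with treatment as a term; filled points have an adjusted p under 0.05. Number 4 lies above 0 for TIMP1 (0.96), MMP9 (0.71), BSG (0.64) and TIMP3 (0.62) and below 0 for ADAM10 (-0.64) and ADAM17 (-0.50), while number 2 lies at -1.13 for TIMP1 and 0.55 for ADAM17.

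Genes with profiles most like those of the set were sought by the mean absolute difference, over the 8 arrays, between values centred on each gene's own mean, among 9045 other genes that differed between numbers. Nearest to BSG were TMSB10, which binds actin monomers, at 0.0513, CAPNS1, the small calpain subunit, at 0.0588, and AP2S1, a clathrin adaptor subunit, at 0.0625, where BSG itself lay 0.304 from its mean on average. Nearest to TIMP1 (0.494 from its mean) were ROMO1 at 0.0622, NPW at 0.0759 and DGCR6L at 0.0878. Nearest to ADAM10 (0.299) were SEL1L, of the endoplasmic reticulum degradation machinery, at 0.0388, SLC60A2 at 0.0513 and VAMP1 at 0.0553, and nearest to ADAM17 (0.286) were TRAF5, YEATS2 and RBL2 at 0.0437 to 0.0484. MMP2 was nearest to FAM124A, HERC6 and APC2 (0.0594 to 0.0613), MMP9 to CNTN6, OTC and PPP1R1B (0.0569 to 0.0894) and TIMP3 to PIK3R6, KRT222 and MANBA (0.06 to 0.0781). These are likenesses across 8 arrays that share 4 numbers.

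Other genes of matrix and surface proteolysis gave the same result for OICR-9429. In 10 lists with 130 measured entries of 142, 0 passed an adjusted p of 0.05 with or without the block (limma), 0 had an unadjusted p under 0.05 without the block, and 7 (5.38%) had one with it, 3 higher and 4 lower, against 5.55% of all probe sets. List medians lay between -0.0925 for the other MMPs and 0.075 for the other ADAMs, against 0.005 over all probe sets. Lower among the 7 were MMP25, a membrane-anchored metalloproteinase of leukocytes (-0.245 on the log2 scale, OICR minus untreated), and ADAMTS17 (-0.295). The broad protease inhibitor A2M (-0.33) and the tetraspanin TSPAN33, which guides ADAM10 (-0.2575), were also lower. Higher were the collagen-cutting cathepsin CTSK (0.3825) and the shed receptors IL6R (0.275) and LAG3 (0.365). All 7 had a mean level below 6.445, the median of all probe sets, from 4.085 for A2M to 6.37 for ADAMTS17. A2M lay under the dim reference of 4.83.

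Between replicate numbers the neighbouring genes moved in both directions. Of the 130 entries, 57 (43.8%) passed the F test of any difference between numbers, against 50.3% of all probe sets. Without number 4 it was 19 (14.6%), against 13.9%. At number 4, 46 (35.4%) were higher and 18 (13.8%) lower, against 26.3% higher and 25.5% lower of all probe sets. All probe sets are not matched to the lists in level, and list median levels ran from 3.774 for the other MMPs to 10.36 for the basigin partners. The number 4 difference was above 0 in 68.9% and 69.1% of probe sets in the 2 dimmer classes of level. In the 2 brighter ones it was above 0 in 49.1% and 37.4%. The part of that trend in the list counts was not tested. Among the other MMPs 8 of 19 were higher at number 4 and 0 lower (median 0.352), with the membrane-anchored MMP17 at 0.91 and MMP25 at 0.69. Only 4 of the 19 lay above the dim reference of 4.83, and 4 (21.1%) passed the F test between numbers. The olfactory receptors ran the same way at number 4, with 64 of 349 higher and 6 lower. Of 17 other ADAMs 5 were higher and 3 lower, with ADAM22 at -1.225 and ADAM9 at -0.81, and of 18 ADAMTS genes 5 were higher and 2 lower, with ADAMTS10 at 0.77 and ADAMTS1 at -1.01. Of 9 other inhibitors 5 were higher and 1 lower, led by SPINT2 (1.18), an inhibitor of membrane serine proteases, CST3 (1.16), the secreted cystatin C, and SERPINE2 (0.87). Of 14 genes for cathepsins and legumain 5 were higher and 0 lower, with legumain (LGMN) at 1.78 and CTSB at 0.88.

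Partners of the 9 genes did not all follow them at number 4, where the counts below stand against 26.3% of all probe sets higher and 25.5% lower. Of 13 measured partners and activators of the sheddases 5 were higher and 1 lower. TSPAN14, a tetraspanin that brings ADAM10 to the cell surface, was higher by 1.57 and RHBDF2, the iRhom that carries ADAM17, by 0.70, where ADAM10 and ADAM17 were lower. Of 8 partners of basigin 2 were higher and 3 lower, among them its relatives NPTN (-1.08) and EMB (-0.61), where BSG was higher by 0.64. Of 8 genes of MMP14 delivery and invadosomes 2 were higher, among them CTTN (cortactin) at 0.955, and 3 lower, among them VAMP7 (-1.18) and the motor KIF5B (-1.12). Of 17 shed proteins 7 were higher, with TNFRSF1A, an ADAM17 substrate, at 1.06, and 3 lower, with CDH2, an ADAM10 substrate, at -0.96. In plasminogen activation 2 of 7 were higher and 2 lower, with the urokinase gene PLAU at 0.95 and ANXA2 at -0.55.

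**Figure D5:**
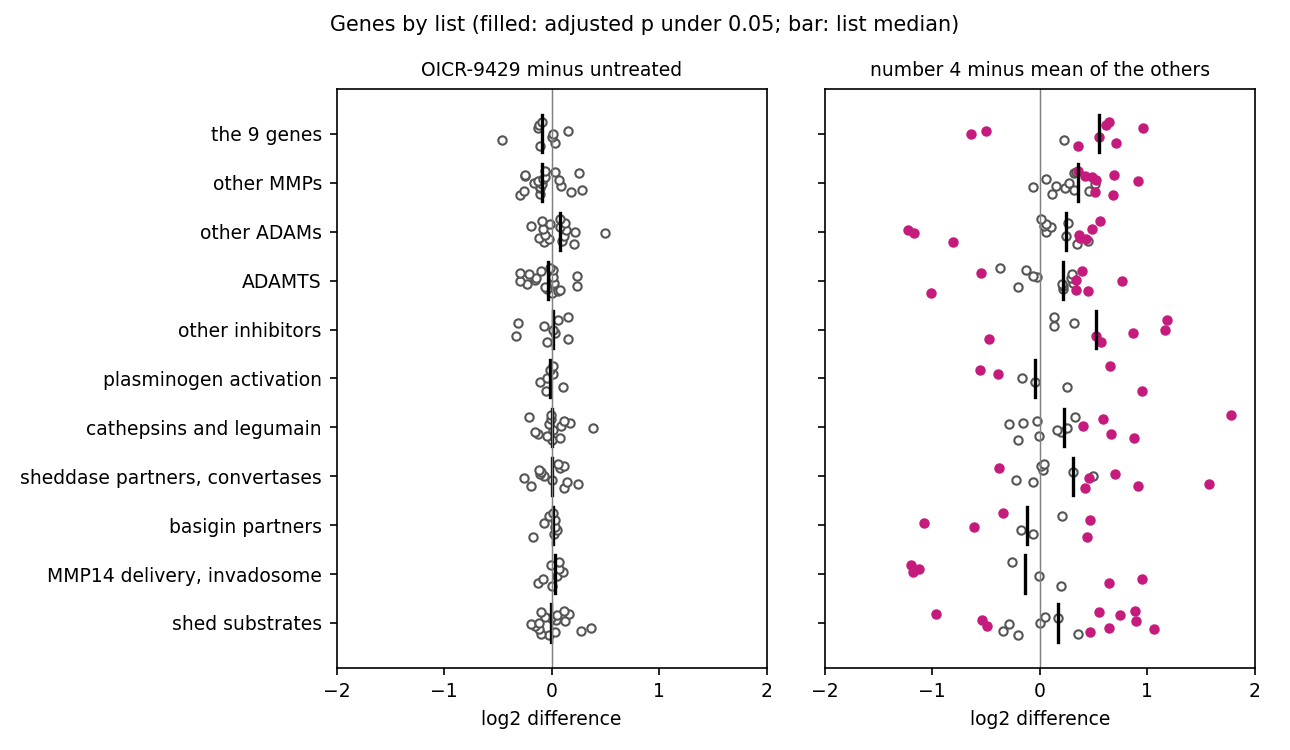
Log2 difference (x axis) of the 9 genes and of the measured genes of 10 related lists (rows), for OICR-9429 minus untreated at left and number 4 minus the other numbers at right; filled points have an adjusted p under 0.05 and bars give list medians. No point is filled at left, and at right the 9 genes have 6 filled points above 0 and 2 below.

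Markers of other kinds of cell were also read, since metalloproteinases and TIMPs are abundant in fibroblasts and myeloid cells. With OICR-9429, 0 of the markers passed (limma). The mean log2 value over 7 of 8 fibroblast markers ran from 5.25 to 5.53 in OICR arrays and from 5.44 to 5.64 in untreated arrays, and over 7 of 8 myeloid markers from 5.12 to 5.64 in OICR arrays and from 5.16 to 5.69 in untreated arrays. Over 5 endothelial markers it ran from 5.26 to 5.58 in OICR arrays and from 5.32 to 5.74 in untreated arrays. Over 5 epithelial markers it ran from 5.68 to 5.84 in OICR arrays and from 5.54 to 5.88 in untreated arrays, and over 4 of 5 B-cell markers from 6.81 to 7.01 in OICR arrays and from 6.68 to 7.01 in untreated arrays. The values of the other cell types thus overlapped between the groups. Of the fibroblast markers, 7 of 7 had a mean difference below 0 (median -0.205), as did 10349 of all 21448 probe sets. MMP14 differed by -0.46, and a link with these markers was not tested. At or below the dim reference of 4.83 were LUM, LYZ, FCGR3A, KDR, TEK, CDH1, KRT18 and MS4A1. Above 6.445, the median of all probe sets, were COL1A1, COL1A2 (8.11), CD68, CSF1R, PECAM1 (8.62), VWF, KRT8 (8.01), KRT19, CD79A (9.42) and CD79B. At number 4, where 26.3% of all probe sets were higher and 25.5% lower, 2 fibroblast (COL1A1, 0.625, and COL1A2, 0.385), 3 myeloid (CD68, 1.68, CD14, 0.485, and CSF1R, 0.37), 1 endothelial (CDH5, 0.66) and 1 B-cell marker (CD79A, 0.59) were higher, and EPCAM (-0.75) and MS4A1 (-0.365) lower. Among the T-ALL identity genes 5 of 9 were higher there and 1 lower, with CD247 at 1.20 and CD5 at 1.00. The part of these shifts in the values of the 9 genes was not tested.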

How the data were processed

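Expression was measured on 8 Affymetrix arrays, 4 of OICR-9429-treated and 4 of untreated cells, with RNA labelled by the GeneChip WT PLUS kit per the labels' protocols. The deposited log2 expression values were made by the authors with RMA and Transcriptome Analysis Console, per the submitters' processing notes; the sources used here give no versions and no genome build. The table held 21448 probe sets on each array, and 0 array pairs were identical. Scanner files were not used here, so background signal and scan batch were not examined. Precision is limited by the number of arrays.

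Gene symbols came from the platform's annotation and were updated by Entrez ID in a RefSeq table of GRCh38.p14: 17709 had 1 symbol, 0 several and 3739 none. A gene with several probe sets (20 genes, 0 of them in the set) was represented by the one with the highest mean. The comparison of groups used lmFit and eBayes of limma 3.58.1 in R 4.3.3, two-sided, without a covariate, and Benjamini-Hochberg adjustment over all probe sets at 0.05. The replicate numbers come from the titles. Same-numbered arrays correlated in their deviations from group means at 0.696, 0.748, 0.566 and 0.865 for numbers 1 to 4, all over a limit of 0.1, so the numbers pair the samples, and the fit with the number as a block was run beside the first. Numbers were compared in a model of number and treatment. Sequences come from RefSeq promoter entries of GRCh38.p14. The fits were tested on simulated data.

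The members, lists and tests were chosen with earlier results of these data known. Named were the 9 genes, list genes with the 3 smallest unadjusted p by treatment and by number, all markers, and the 3 nearest profiles of each gene that differed between numbers. Alternatives were the block, centring, quantile normalization, trend and robust variance, a filter at the median level, and leaving out arrays or pairs.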

Additional observations from a re-analysis of the deposited data

How the results depend on the processing

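For OICR-9429, 0 probe sets and 0 of the 9 genes passed under every alternative run: the replicate block, median centring, quantile normalization, trend and robust variance, the filter at the median level (which removes MMP2, MMP9, MMP14 and TIMP3), each array left out and, with the block, each pair left out. The replicate block changed no call. MMP14 kept its sign under each alternative that tested it, at -0.59 without untreated replicate 3, -0.35 without untreated replicate 4 and -0.66 with the block without replicate 3. Its unadjusted p (limma) was 0.0542 after median centring, 0.0538 after quantile normalization and 0.0391 with trend and robust variance. With 1 array left out it ran from 0.0128 to 0.0984, and with the block and 1 pair left out from 0.00118 to 0.0790. The ADAM10 difference was -0.0039 after quantile normalization. Leaving out 1 array moved the others, none of them called, across 0: MMP9 from -0.11 to 0.25, ADAM10 from -0.15 to 0.18, ADAM17 from -0.0033 to 0.27, ADAM8 from -0.18 to 0.17, TIMP1 from -0.40 to 0.165, TIMP3 from -0.27 to 0.091 and BSG from -0.25 to 0.16, while MMP2 ran from -0.21 to -0.0042. With the block and 1 pair left out, MMP9 ran from -0.083 to 0.18 (-0.067 without replicate 2) and ADAM10 from -0.077 to 0.06.

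Between replicate numbers, the count of probe sets that differed was 2979 without replicate 4 and 9307 to 10394 without the others, and that of the 9 genes was 2 without replicate 4 and 5 to 7 without the others. Entries of the 10 related lists that differed were 19 without replicate 4 and 50 to 54 without the others, an alternative chosen after seeing the data. Members past the threshold at number 2 were 2 without replicate 4 and 4 without replicates 1 or 3, and at number 4 there were 7 to 8 with another pair left out. With the filter at the median level, 5 members were tested and 5 passed at number 4; fewer genes were tested there. At number 4, ADAM17 was -0.36 without replicate 2 (adjusted p 0.0679, limma; 0.0014 to 0.121 over its alternatives) and MMP2 was 0.25 without replicate 1 (adjusted p 0.168). No gene had a further probe set, so that alternative was not run. Low signal over background limits what can be seen in MMP2, MMP9 and MMP14.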

Other observations

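The measured TIMP genes, TIMP1 and TIMP3, lie inside synapsin genes in the RefSeq annotation, TIMP1 within SYN1 and TIMP3 within SYN3. The host genes, chosen here by position, had probe sets of their own. SYN1, which encodes a synaptic vesicle protein, measured 4.67 ± 0.51 in OICR cells and 4.51 ± 0.25 in untreated cells (SD, n = 4 each), within the range of the olfactory receptors. It stood 0.45 higher at number 4 than in the other numbers (adjusted p 0.123, limma), where TIMP1 was higher by 0.96. SYN3 measured 5.25 ± 0.26 in OICR cells and 5.45 ± 0.19 in untreated cells (SD, n = 4 each) and stood 0.11 higher at number 4 (adjusted p 0.635, limma), where TIMP3 was higher by 0.62. IAH1, which overlaps ADAM17, measured 9.13 ± 0.11 in OICR cells and 9.10 ± 0.04 in untreated cells (SD, n = 4 each) and stood at -0.04 at number 4 (adjusted p 0.784, limma), where ADAM17 was lower by -0.50.

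In 18 groups of 4 arrays (9 genes, OICR and untreated), 0 held 1 array farther from the other 3 than Dixon's 95% limit.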
